A study of Mus musculus with 6 samples.

Results

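Interferon-stimulated genes are the genes that cells switch on when they sense interferon, and the 43 examined here are a named list of mouse antiviral effectors, guanylate-binding proteins, immunity-related GTPases and the transcription factors that drive them. They were taken by gene symbol from the deposited count table. All 43 were among its 29393 genes, and all 43 were among the 14916 genes with enough counts to be tested. RNA was sequenced from CD4-derived double negative T cells (cDNT), which are T cells that have lost CD4 and lack CD8 on their surface, sorted after T cells of C57BL/6 mice had been cultured together with mature dendritic cells. One group had received IL-10 at 50 ng/ml for 24 h (W/ IL-10, 3 libraries) and the other had not (W/O IL-10, 3 libraries). Per the study's methods, the cells W/ IL-10 also received antibodies to CD3 and CD28, while the labels call the cells W/O IL-10 unstimulated and do not say whether those antibodies were added there. The series' design text speaks of duplicates, whereas 3 libraries are listed per group. Nothing in the labels ties the libraries to separate cultures or animals, so p-values measure only the spread between these libraries, which may be technical.

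Type I interferons bind a receptor made of IFNAR1 and IFNAR2, whose kinases TYK2 and JAK1 phosphorylate STAT proteins, STAT2 among them. With IRF9 these form a complex that binds the interferon-stimulated response element (ISRE) in promoters. Interferon gamma, a main product of activated T cells, acts through IFNGR1 and IFNGR2 and leads to binding at the GAS element, and it is the classical inducer of the guanylate-binding proteins and immunity-related GTPases. IL-10 signals through JAK1, TYK2 and mainly STAT3, and SOCS3 is the usual feedback inhibitor induced by that route.

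Libraries held 21619420 to 23967088 counts, so 3 counts corresponded to 0.125 to 0.139 CPM (counts scaled to library size). The T cell markers were abundant, with 8 of them summing to 1280 to 1910 CPM, and Cd4 stood at 0.351 to 1.55 CPM. Cd8a, which the cell name would place near zero, stood at 95.8 to 169 CPM and Cd8b1 at 32.6 to 66.6 CPM. Of the 4 B cell markers none was at 0 in any library, and their sum was 55.7, 136 and 91.8 CPM W/O IL-10 against 55.3, 93.9 and 51.5 CPM W/ IL-10. The 7 dendritic cell markers summed to 112 to 191 CPM, mostly Cd74, while Clec9a and Siglech were each at 0 in 5 of 6 libraries. The 6 macrophage and monocyte markers summed to 26.7 to 34.4 CPM and the 3 neutrophil markers to 2.93 to 6.74 CPM.

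The genes were well represented in both groups. Their mean level over the 6 libraries ran from 0.775 CPM (Ifi44) to 657 CPM (Irf8), with a median of 42.0 CPM, against a median of 20.3 CPM over all genes tested. Levels were ordered within the W/O IL-10 group per kilobase of exon, as CPM per kilobase. Irf8 led at 94.2, followed by Ifi27l2a at 80.2, Lgals3bp at 66.4, Igtp at 66.4, Ifi47 at 50.4 and Bst2 at 48.6. Mx1 (14.0), Irf7 (12.6) and Usp18 (8.31) lay in the middle of the order and Isg15 at 4.07. The lowest 6 were Rsad2 at 1.29, Ifit1 at 1.06, Oasl2 at 0.89, Ifit3 at 0.83, Oas2 at 0.349 and Ifi44 at 0.143.

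Few of the 43 genes were called as changed, and few of all genes tested were. None passed the study's threshold, a fold change of at least 1.5 with an adjusted p under 0.05 in edgeR's quasi-likelihood test, which 1.45% of all genes tested passed (0.778% higher and 0.677% lower W/ IL-10). DESeq2 and limma-voom also gave 0 members past it, with 359 and 205 of the 14916 genes tested past it. With the adjusted p alone 2 genes passed, Igtp and Irgm2, both lower W/ IL-10. That is 4.65% of the members against 2.19% of all genes tested (1.21% higher, 0.979% lower). At an unadjusted p under 0.05 the test gave 12 members, 4 higher and 8 lower, or 27.9% against a background of 14.7%. DESeq2 and limma-voom gave adjusted p values under 0.05 for 4 and 2 members, and for 4.67% and 2.06% of all genes tested. The median log2 fold change was -0.03, against 0.01 over all genes tested, with 21 members above 0 and 22 below. The size of the changes had a median of 0.18 on the log2 scale against 0.15 over all genes. The log2 fold changes ran from -0.68 (Oasl2) to 0.37 (Mx1), and Oasl2 alone differed by 1.5-fold or more. For 26 of 43 members, 60.5%, the 95% interval of the change lay wholly inside 1.5-fold in both directions, against 56.8% of all genes tested. In simulated data of this size, 33.5% of genes made to change 1.5-fold were recovered at an adjusted p under 0.05 (edgeR), at any fold change. Of genes made to change 2-fold, 76.5% were recovered, so smaller changes of single genes could often not be detected at this depth and replication. In bulk RNA, fewer cells that carry a transcript and less transcript per cell cannot be told apart.

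The groups of 3 libraries did not overlap for 19 members, 44.2% of them, against 22.6% of all genes tested. Of these 8 were higher W/ IL-10 (background 11.3%) and 11 lower (background 11.2%). All 4 guanylate-binding proteins and all 6 genes of the ISG15 system and PARP9 complex had log2 fold changes above 0, although of these 10 genes none passed the adjusted test, and Gbp4 and Usp18 changed sign in alternative analyses. All 5 transcription factors were below 0, Irf8 with a sign that also turned, and 4 of 5 immunity-related GTPases were below 0.

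**Figure D1:**
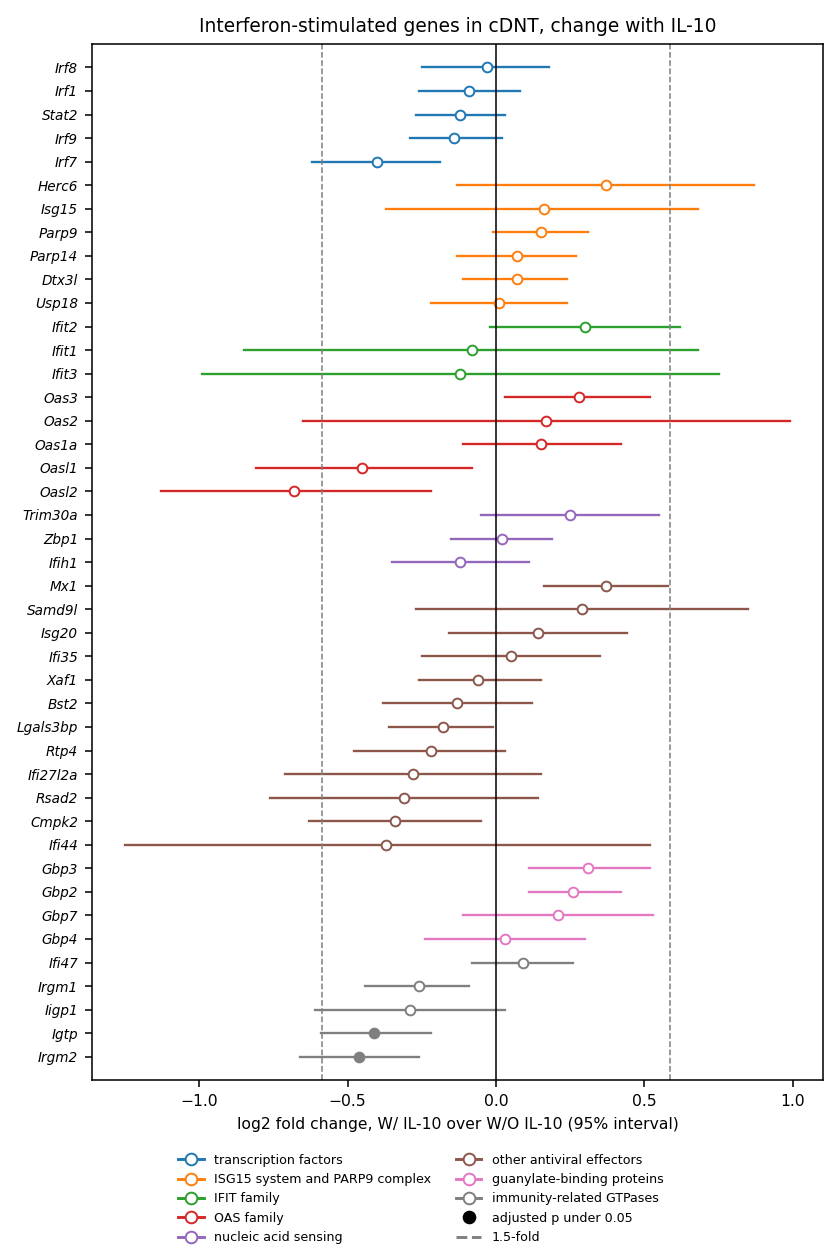
Log2 fold change of each of the 43 genes, W/ IL-10 over W/O IL-10, with its 95% interval from edgeR (n = 3 libraries per group), coloured by role; dashed lines mark 1.5-fold and filled points an adjusted p under 0.05. The filled points are Igtp and Irgm2, and Oasl2 is the one point beyond a dashed line.

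Promoters of 15 of the 33 genes with a promoter in the table held the letters of the ISRE, and 7 are shown. The stretches below are the 100 bases before the transcription start in RefSeq (GRCm38.p6), written 5′ to 3′ on the strand of the gene, with the ISRE letters in capitals. They were chosen because they hold the ISRE in GTPases with log2 fold changes below 0 (Igtp, Irgm2, Irgm1) and above 0 (Gbp2, Gbp3, Gbp7), and in Isg15, the classical marker of the type I response. Igtp lies at chr11:58199456-58199555 on the + strand, Irgm2 at chr11:58214877-58214976 (+), Irgm1 at chr11:48871421-48871520 (-), Gbp2 at chr3:142620563-142620662 (+), Gbp3 at chr3:142559944-142560043 (+, one of 2 starts listed), Gbp7 at chr3:142530236-142530335 (+) and Isg15 at chr4:156200819-156200918 (-).
Igtp: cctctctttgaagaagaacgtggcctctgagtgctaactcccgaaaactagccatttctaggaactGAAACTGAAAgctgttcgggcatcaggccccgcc
Irgm2: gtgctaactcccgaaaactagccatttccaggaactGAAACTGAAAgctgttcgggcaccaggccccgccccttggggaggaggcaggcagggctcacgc
Irgm1: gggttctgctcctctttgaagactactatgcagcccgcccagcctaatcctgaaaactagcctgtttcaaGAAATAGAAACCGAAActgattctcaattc
Gbp2: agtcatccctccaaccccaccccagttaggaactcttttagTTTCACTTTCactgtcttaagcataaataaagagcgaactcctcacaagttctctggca
Gbp3: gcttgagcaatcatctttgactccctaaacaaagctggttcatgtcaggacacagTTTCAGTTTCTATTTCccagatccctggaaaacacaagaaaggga
Gbp7: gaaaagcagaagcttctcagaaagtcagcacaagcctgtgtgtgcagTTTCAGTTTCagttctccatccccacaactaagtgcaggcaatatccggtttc
Isg15: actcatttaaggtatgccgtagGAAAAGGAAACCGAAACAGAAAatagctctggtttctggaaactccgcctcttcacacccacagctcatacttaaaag

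In Gbp2, Gbp3 and Gbp7 the element reads on the other strand, and in Irgm1, Gbp3 and Isg15 overlapping copies run together. Aligned without gaps on the ISRE, the Igtp and Irgm2 stretches were identical at 68 of 70 bases, 97.1%. Over the 55 pairs formed by 11 member promoters with the element in this stretch, the next highest identity was 50% over 52 bases (Irgm1 and Isg15). Stretches were aligned as printed on their first capital letter, and none was turned to the other strand. Pairs with the element on opposite strands, and pairs with Ifit1, whose stretch begins inside an element, are therefore not a like comparison. The ISRE was searched as GAAANNGAAA on both strands in the 250 bases before the start. Of the 43 genes 33 had a promoter in the table, and 15 of these, 45.5%, held it, against 3.46% of 27025 genes in all. The GAS letters TTCNNNGAA, which read the same on both strands, stood in 9 of 33, 27.3%, against 8.13% of all genes, and in 1 of 41 member promoters the motifs overlapped. The 15 genes with the ISRE had a median log2 fold change of -0.08, 7 above and 8 below 0. The 18 without it had a median of -0.07, 7 above and 11 below 0. Genes above and below 0 thus stood in both sets.

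The clearest changes were in the immunity-related GTPases, interferon gamma-induced proteins that act on the vacuoles of intracellular pathogens. Igtp, which encodes Irgm3, stood at 134, 139 and 130 CPM W/O IL-10 and at 103, 108 and 91.5 CPM W/ IL-10. The groups were well apart. Igtp fell by 0.41 on the log2 scale (SE 0.08, 0.75-fold, adjusted p = 0.043, edgeR). Irgm2, a related regulatory GTPase, stood at 52.3, 51.7 and 53.8 CPM W/O IL-10 and at 41.9, 38.1 and 34.6 CPM W/ IL-10. Irgm2 fell by 0.46 on the log2 scale (SE 0.09, 0.73-fold, adjusted p = 0.0391), and again every library W/ IL-10 lay below every library W/O IL-10. These 2 calls rest on all libraries: without W/O IL-10 replicate 1 the adjusted p values were 0.0162 and 0.014, but on leaving out any other single library neither gene passed, with adjusted p values from 0.065 to 0.191 and log2 fold changes from -0.53 to -0.34. Some cell type markers moved with the groups too: the 3 NK cell markers, mostly Eomes, which T cells also express, summed to 546 to 574 CPM W/O IL-10 and 383 to 413 CPM W/ IL-10, with none at 0. All 3 had log2 fold changes below 0, from -1.15 (Ncr1) to -0.27 (Klrb1c). Of these, 2 had an adjusted p under 0.05 in edgeR, 66.7% against 2.19% of all genes tested. The 8 T cell markers summed to 1280 to 1630 CPM W/O IL-10 and 1770 to 1910 CPM W/ IL-10, and of these Cd8a and Cd8b1 rose by 0.56 and 0.67 on the log2 scale (adjusted p = 0.0369 and 0.0306). In all, 7 T cell markers had log2 fold changes above 0, and Cd4 lay below at -0.65. Of 4 dendritic cell markers tested, 2 lay above 0 and 2 below. Itgax, which activated T cells also express, rose by 1.09 (adjusted p = 0.00383, edgeR), and Cd74 was the lowest at -0.59. The part of the cell type markers in the differences of Igtp and Irgm2 was not tested.

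The annotation places the pair on the + strand of chromosome 11 of GRCm38, Igtp at 58199556 to 58207591 and Irgm2 at 58199618 to 58222782. Nearly all of the Igtp span thus lies within the Irgm2 span. The gene models overlap over 8.0% of Igtp exon bases and 4.4% of Irgm2 exon bases, and 11.8% and 7.8% of their 50-base stretches are shared with other genes. How reads from the shared stretches were counted is not given in the sources used here, so the pair may not be 2 independent measurements.

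Irgm1, the third of the regulatory GTPases, stood at 123, 113 and 115 CPM W/O IL-10 and at 105, 97.7 and 90.7 CPM W/ IL-10. Its groups did not overlap either, with a log2 fold change of -0.26 (SE 0.08) that missed the test (adjusted p = 0.143). Iigp1, an effector GTPase, stood at 65.7, 87.2 and 71.3 CPM W/O IL-10 against 70.2, 63.1 and 50.2 CPM W/ IL-10. Here replicate 1 W/ IL-10 lay within the range of the other group, and the log2 fold change of -0.29 had an adjusted p of 0.39. The longest transcript of Iigp1 is only 39.3% GC. Once both GC content and exon length were corrected for, Iigp1 passed the test with a value of -0.51 (log2, adjusted p = 0.0476, edgeR). Ifi47 stood apart from its family, at 134, 118 and 122 CPM W/O IL-10 against 138, 134 and 127 CPM W/ IL-10, with a log2 fold change of 0.09 (95% interval -0.08 to 0.26).

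Guanylate-binding proteins are larger interferon-induced GTPases that coat pathogens and their vacuoles. None of the 4 members passed the test. Gbp2 stood at 81.3, 83.8 and 82.8 CPM W/O IL-10 and at 94.5, 104 and 99.9 CPM W/ IL-10. These narrow groups did not overlap, but the log2 fold change of 0.26 (SE 0.07) did not pass the test (adjusted p = 0.0963). Gbp3 stood at 62.5, 68.4 and 78.3 CPM W/O IL-10 and at 88.1, 84.3 and 87.6 CPM W/ IL-10, a log2 fold change of 0.31 (adjusted p = 0.133). Gbp4, the most abundant of the family, stood at 227, 307 and 308 CPM against 295, 282 and 282 CPM, and Gbp7 at 92.7, 137 and 140 CPM against 145, 137 and 146 CPM. In both of these replicate 1 W/O IL-10 was the lowest of 6 libraries, and without it the log2 fold changes were -0.11 for Gbp4 and 0.03 for Gbp7.

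**Figure D2:**
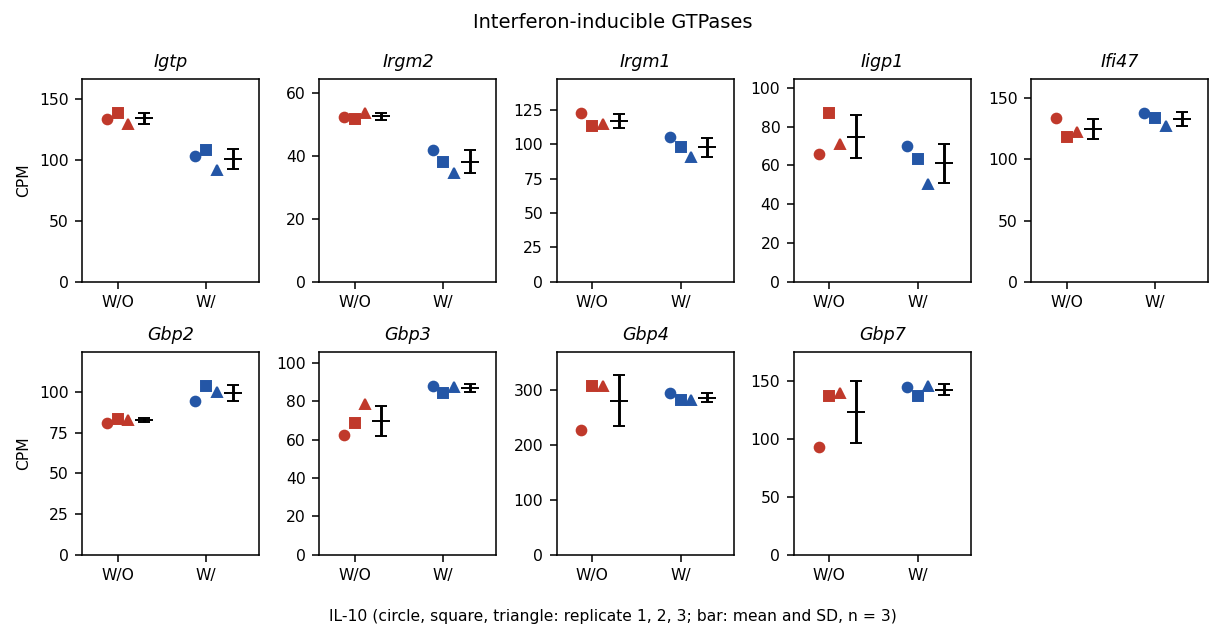
CPM of the 5 immunity-related GTPases (top) and 4 guanylate-binding proteins (bottom) in each library, with mean and SD (n = 3 per group). Igtp, Irgm2 and Irgm1 are lower in every library W/ IL-10, Gbp2 and Gbp3 are higher in every one, and replicate 1 W/O IL-10 is low for Gbp4 and Gbp7.

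The transcription factors that drive the response lay level or slightly lower. Irf7, the interferon-induced amplifier of type I interferon production, stood at 47.7, 46.2 and 48.9 CPM W/O IL-10 and at 31.4, 37.9 and 38.5 CPM W/ IL-10. The groups were apart, with a log2 fold change of -0.40 (SE 0.10) just short of the test (adjusted p = 0.0785), while DESeq2 gave it an adjusted p of 0.022. Stat2, a subunit of the complex that binds the ISRE, stood at 88.9, 89.6 and 84.6 CPM against 79.1, 80.0 and 83.5 CPM W/ IL-10, and Irf9, which gives the complex its DNA contact, at 77.9, 83.8 and 76.7 CPM against 74.9, 70.7 and 71.6 CPM. Both were lower in every library W/ IL-10, yet by only -0.12 and -0.14 on the log2 scale (adjusted p = 0.469 and 0.422). Irf1, which carries the interferon gamma response, had overlapping groups at 135 ± 8.48 against 127 ± 4.47 CPM (mean ± SD, n = 3). Irf8, a factor of myeloid and B cells that activated T cells also express, stood at 624, 705 and 665 CPM W/O IL-10 and at 610, 714 and 624 CPM W/ IL-10, a log2 fold change of -0.03 (95% interval -0.25 to 0.18). It was highest in replicate 2 of each group, as were the summed levels of the B cell markers and of the dendritic cell markers. The part of these markers in the Irf8 values was not tested.

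The ISG15 system attaches the ubiquitin-like protein ISG15 to other proteins, and PARP9 with DTX3L forms an ADP-ribosylating ubiquitin ligase that interferon induces. Isg15 itself was scarce, at 3.64, 2.40 and 3.19 CPM W/O IL-10 against 2.82, 3.77 and 3.68 CPM W/ IL-10. The groups overlapped, and the 95% interval of its log2 fold change reached from -0.37 to 0.68. Usp18, the protease that removes ISG15 and damps the interferon receptor, had means of 23.2 ± 1.26 and 23.3 ± 2.03 CPM, with an interval of -0.22 to 0.24. Herc6, the mouse ligase that attaches ISG15, stood at 10.6, 19.5 and 20.8 CPM against 24.1, 20.8 and 20.9 CPM, so its log2 fold change of 0.37 (adjusted p = 0.494) rested on replicate 1 W/O IL-10 and was 0.11 without it. Parp9 was higher in every library W/ IL-10, at 97.2, 103 and 103 CPM against 106, 114 and 116 CPM (log2 fold change 0.15, adjusted p = 0.386), whereas Dtx3l (152 against 159 CPM) and Parp14 (147 against 155 CPM) overlapped.

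The IFIT proteins bind viral RNA that lacks the methylated cap of host mRNA. Ifit1 and Ifit3 were near the lower end of the list, at 1.53 to 4.13 CPM and 0.732 to 2.12 CPM over the 6 libraries, and their intervals, -0.85 to 0.68 and -0.99 to 0.75 on the log2 scale, reached past 1.5-fold in either direction. Of the 50-base stretches of Ifit3, 51.2% are shared with other genes, mainly its near copy Ifit3b, so its counts are uncertain. Ifit2 stood at 8.78, 11.9 and 11.0 CPM W/O IL-10 and at 14.0, 12.3 and 12.7 CPM W/ IL-10, with groups apart and a log2 fold change of 0.30 (adjusted p = 0.37).

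Oligoadenylate synthetases make the messenger that activates RNase L. None of the 5 genes of the family passed the adjusted test, and 3 of them had an unadjusted p under 0.05 (Oas3, Oasl1 and Oasl2). Oas3 stood at 22.5, 26.5 and 26.6 CPM W/O IL-10 and at 27.5, 31.0 and 33.0 CPM W/ IL-10, a log2 fold change of 0.28 (adjusted p = 0.28). Oas1a, at 12.1, 11.0 and 11.5 CPM against 12.3, 14.1 and 12.2 CPM, was likewise higher in every library W/ IL-10, though 57.6% of its 50-base stretches are shared with near copies such as Oas1g and Oas1b, and Oas2, at 1.10 to 2.48 CPM, overlapped. Oasl2 stood at 6.33, 6.20 and 4.48 CPM W/O IL-10 and at 3.50, 4.0 and 3.15 CPM W/ IL-10. This was the largest difference of the 43 genes, with a log2 fold change of -0.68 (SE 0.20, 0.63-fold), from counts of 72 to 155 per library, and its adjusted p was 0.148. Oasl1, which holds back translation of Irf7 mRNA, stood at 9.07, 11.2 and 8.49 CPM against 6.66, 7.99 and 6.44 CPM, a log2 fold change of -0.45 (adjusted p = 0.232).

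Of the sensing genes, Ifih1, which encodes the double-stranded RNA sensor MDA5, had means of 21.3 ± 1.19 and 19.5 ± 1.45 CPM. Zbp1, the Z-form nucleic acid sensor that triggers necroptosis, had means of 65.8 ± 2.72 and 66.9 ± 3.83 CPM. Trim30a, a negative regulator of Toll-like receptor signalling, stood at 78.4, 109 and 112 CPM against 129, 116 and 113 CPM W/ IL-10, and its log2 fold change of 0.25 was 0.10 without replicate 1 W/O IL-10. For all 3 genes the 95% interval lay inside 1.5-fold in both directions.

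Among the other antiviral effectors, Mx1 had the highest log2 fold change of the list. Its transcript stood at 48.3, 54.2 and 56.3 CPM W/O IL-10 and at 67.5, 63.4 and 74.4 CPM W/ IL-10. The groups were apart (log2 fold change 0.37, SE 0.09), with an adjusted p of 0.0861 in edgeR and 0.0384 in DESeq2. Cmpk2 and Rsad2, neighbouring genes that encode a nucleotide kinase and viperin, lay the other way. Cmpk2 stood at 11.1, 12.4 and 11.6 CPM against 8.60, 10.3 and 8.68 CPM W/ IL-10 (log2 fold change -0.34, adjusted p = 0.253), and Rsad2 at 5.15, 6.16 and 5.43 CPM against 3.69, 5.64 and 4.16 CPM (-0.31, adjusted p = 0.528).

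Lgals3bp, a secreted glycoprotein, and Rtp4, a receptor chaperone, were lower in every library W/ IL-10, with means of 189 against 167 CPM and 11.8 against 10.1 CPM and log2 fold changes of -0.18 and -0.22. Their adjusted p values were 0.309 and 0.412. Samd9l, a restriction factor, stood at 105, 214 and 235 CPM W/O IL-10 against 245, 205 and 228 CPM W/ IL-10. Its log2 fold change of 0.29 came from replicate 1 W/O IL-10, without which it was -0.00097. The groups of Bst2, which tethers budding virus particles, Isg20, an RNA exonuclease, Xaf1, Ifi27l2a, Ifi35 and Ifi44 overlapped, with log2 fold changes from -0.37 (Ifi44) to 0.14 (Isg20) and adjusted p values from 0.544 to 0.9.

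**Figure D3:**
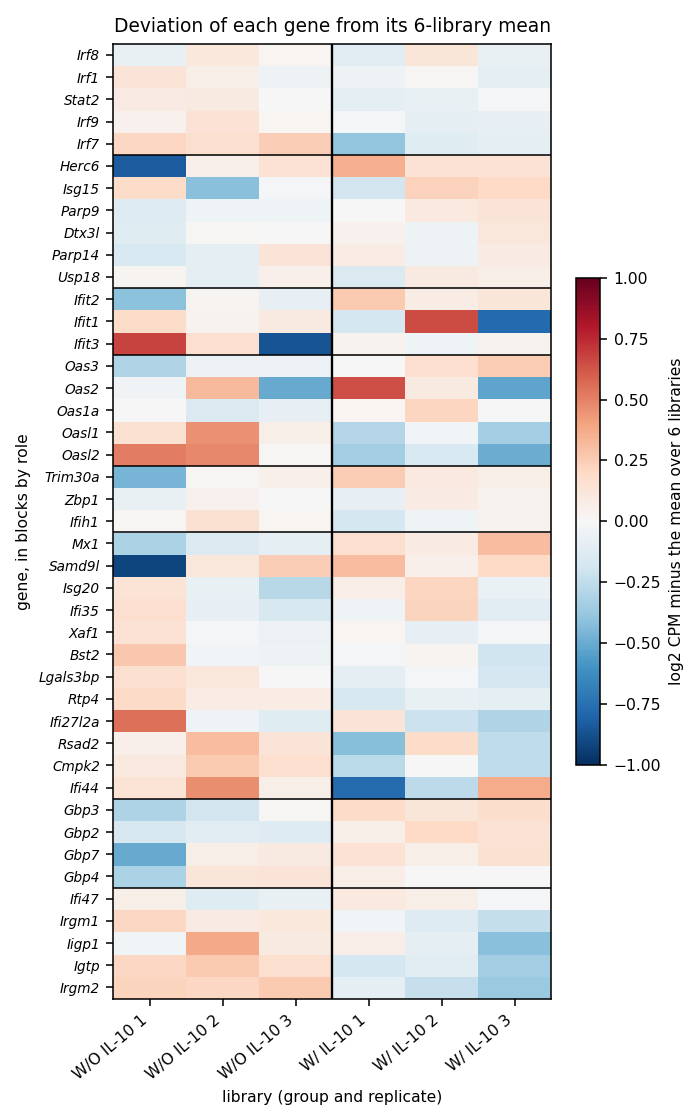
Log2 CPM of each gene minus its mean over the 6 libraries (colour, clipped at 1 in either direction), with genes in blocks by role and libraries in columns. Igtp, Irgm2 and Irf7 change colour between the groups as a whole, while Herc6, Samd9l, Trim30a and Gbp7 are low in replicate 1 W/O IL-10 alone.

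Replicate 1 W/O IL-10 stood apart for genes with AT-rich transcripts. The 9 members with at most 43% GC in their longest transcript had a median deviation of -0.41 from their mean log2 level in that library, against 0.05 to 0.14 in the other 5. Over all 2600 genes tested with such transcripts the deviation was -0.30 in that library and 0.20 in replicate 1 W/ IL-10. Their median log2 fold change was 0.18, against 0.21 for the 9 members. For the 34 members above 43% GC the deviation in replicate 1 W/O IL-10 was 0.11 and the median log2 fold change -0.07. With the correction for GC content and exon length the list had a median log2 fold change of -0.02 and 3 members with an adjusted p under 0.05, which were Igtp, Irgm2 and Iigp1.

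The rest of the pathway was described with a list of 33 ligands, receptors, kinases and regulators, of which 25 were in the table and 23 could be tested. Ifng, the gene for interferon gamma and the one ligand tested, stood at 10.6, 9.97 and 13.1 CPM W/O IL-10 and at 27.8, 23.9 and 25.4 CPM W/ IL-10. Every library W/ IL-10 was far above every library W/O IL-10. Ifng rose 2.29-fold (log2 fold change 1.19, SE 0.13, adjusted p = 0.00383), and 25.9% of its exon bases overlap the gene model Gm49751 on the same strand. Ifnb1, the gene for interferon beta, had a count in 1 of 6 libraries.

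Of 5 receptor chains tested, 1 passed. Ifnar2 stood at 49.2, 47.5 and 50.6 CPM W/O IL-10 and at 36.6, 35.8 and 38.8 CPM W/ IL-10. It fell by 0.40 on the log2 scale (SE 0.08, 0.76-fold, adjusted p = 0.0374), with tight groups far apart. Like Igtp, it missed the test when a library other than replicate 1 W/O IL-10 was left out, and it also missed it with the replicate number as a block (adjusted p = 0.0609). Ifnar1, its partner chain, stood at 184, 197 and 202 CPM against 167, 159 and 189 CPM (log2 fold change -0.18, adjusted p = 0.391). Ifngr1 stood at 589, 687 and 770 CPM against 738, 787 and 824 CPM (0.20, adjusted p = 0.448). Ifngr2, the scarce second chain that limits interferon gamma signalling in T cells, stood at 7.68, 7.82 and 4.91 CPM against 2.58, 4.40 and 3.46 CPM, with a log2 fold change of -0.96 that missed the test (adjusted p = 0.106) and passed it in DESeq2 (adjusted p = 0.0132).

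The receptor kinases Jak1 and Tyk2 did not pass at an adjusted or unadjusted p under 0.05 in edgeR, nor by DESeq2 or limma-voom after adjustment. Jak1 stood at 984, 964 and 1100 CPM against 998, 946 and 1070 CPM W/ IL-10, and Tyk2 at 172, 182 and 183 CPM against 145, 167 and 174 CPM. The 95% intervals of both genes lay within -0.34 to 0.19 on the log2 scale. Of 13 inhibitors and regulators 1 passed, Socs3, which rose 3.54-fold from 9.56 to 11.2 CPM up to 29.2 to 42.1 CPM (adjusted p = 0.00102), while its relative Socs1, the main inhibitor of interferon receptors, had a log2 fold change of -0.03.

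**Figure D4:**
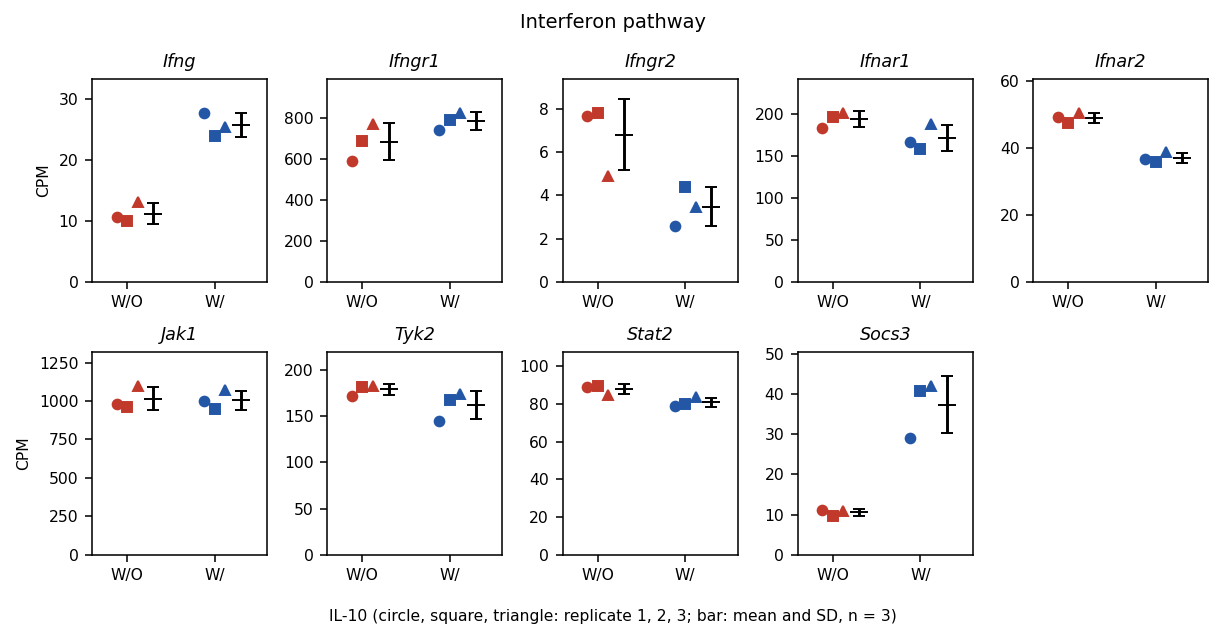
CPM of 9 genes of the interferon pathway in each library, with mean and SD (n = 3 per group). Ifng and Socs3 are more than 2-fold higher W/ IL-10 and Ifnar2 is lower in every library, while Jak1 and Tyk2 overlap between the groups.

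A second list held 95 further interferon-induced genes of the table, of which 89 could be tested. Of these 6 had an adjusted p under 0.05, 6.74% against 2.19% of all genes tested, with 4 higher and 2 lower W/ IL-10 (1.21% and 0.979% of all genes), and the median log2 fold change was 0.03. The higher ones were Tnfsf10, the death ligand TRAIL (19.3 to 23.7 CPM W/O IL-10 against 73.3 to 104 CPM W/ IL-10, 4.11-fold), Ly6a, the surface protein Sca-1 (2.52-fold), Phf11b (1.43-fold) and Epsti1 (1.39-fold). The lower ones were relatives of the members described above: Gbp10, a guanylate-binding protein, stood at 14.6, 17.1 and 16.7 CPM W/O IL-10 against 11.1, 10.4 and 9.77 CPM W/ IL-10 (log2 fold change -0.63, adjusted p = 0.0341). Tgtp2, an immunity-related GTPase of T cells, stood at 94.7, 86.9 and 76.6 CPM against 64.6, 62.4 and 53.0 CPM (-0.52, adjusted p = 0.0447). Of the 50-base stretches of Gbp10 and Tgtp2, 84.1% and 86.6% are shared with near copies such as Gbp6 and Tgtp1, so both values are uncertain. Gbp10 lay opposite to Gbp2 and Gbp3, and Tgtp2 on the same side as Igtp and Irgm2. Of these 6 genes, Tnfsf10 and Ly6a passed whichever single library was left out.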

How the data were processed

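RNA from 6 libraries (3 W/ IL-10, 3 W/O IL-10; grouped by the GEO labels) was analysed from a deposited table of raw read counts per Ensembl gene, made by the authors. The submitters' processing notes name HISAT2, HTSeq and GRCm38, whereas the study's methods name TopHat and Cufflinks, and the labels and methods also name different library kits; strand setting and versions are not given in the sources used here. Gene symbols, exon lengths and the GC content of the longest transcript came from GENCODE M21 (GRCm38), which named 29332 of 29393 identifiers. Promoters came from RefSeq (GRCm38.p6). The 14916 genes that reached 10 counts in 3 or more libraries were kept, normalised by TMM (factors 0.953 to 1.03) and tested between the groups with edgeR 4.0.16 (R 4.3.3) by the quasi-likelihood F-test, with Benjamini-Hochberg adjustment over all genes tested. CPM use the same scaling. A call needed a fold change of at least 1.5 and an adjusted p under 0.05, the study's threshold. The steps were tested on simulated data with 200 changed genes, where a call needed only an adjusted p under 0.05, at any fold change. False calls made up 5.63% (1.5-fold) or 6.71% (2-fold).

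The members and lists were chosen with earlier results of these data known. Genes were named by rule: members with an adjusted p under 0.05; the most abundant and the most and least changed of each role; members whose groups were apart at 1.5-fold; and of the other lists those with an adjusted p under 0.05 plus the receptors and kinases. One gene of the pathway list is not reported here. The remaining members are given for completeness. Alternatives were upper-quartile scaling, DESeq2 1.42.0, limma-voom 3.58.1, other count filters, a replicate block, a spline correction for GC content and exon length with 5 degrees of freedom, and leaving out each library. Counting error and library number limit precision: a count of 3 is 0.125 to 0.139 CPM.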

Additional observations from a re-analysis of the deposited data

How the results depend on the processing

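No member passed both the 1.5-fold and the adjusted p threshold in any of the 14 alternatives. Members with an adjusted p under 0.05, 2 in edgeR, numbered 4 with DESeq2 (Irf7 and Mx1 added), 5 without a count filter, 1 with a replicate block (Igtp kept; Irgm2 at adjusted p = 0.062), 3 with the GC and length correction, 7 with that correction with replicate block, and 0 to 3 on leaving out 1 library (3 without W/O IL-10 replicate 1, 0 without any other). The share of all genes with such a p moved too, from 2.19% to 4.67% (DESeq2), 4.22% (no filter), 1.9% (block), 3.45% (correction), 5.6% (correction with block), 3.58% (without W/O IL-10 replicate 1) and 0.238% to 1.32% (without any other library). Other interferon-induced genes with an adjusted p under 0.05, 6 in edgeR, numbered 13 with DESeq2, 19 without a filter, 13 with the correction and replicate block, and 2 to 11 on leaving out 1 library (11 without W/O IL-10 replicate 1). Pathway genes, 3 in edgeR, numbered 5 with the correction and replicate block, 2 with the block alone (Ifnar2 lost) and 2 to 3 on leaving out 1 library. The members' median log2 fold change was 0.00043 with limma-voom and -0.06 to 0.0028 on leaving out 1 library. Among the genes named by rule, log2 fold changes that turned were those of Usp18 (-0.01 with upper-quartile scaling, -0.0036 with at least 10 counts in every library, -0.04 to 0.08 on leaving out 1 library), Ifit3 (0.00043 with limma-voom, -0.45 to 0.25), Irf8 (0.03 with the GC and length correction, with or without the block, -0.11 to 0.01), Gbp4 (-0.05 with either correction, -0.11 to 0.09), Samd9l (-0.00097 to 0.49) and Jak1 (-0.07 to 0.03); the cause was not tested. Of the other members, Ifit1 (up to 0.20), Oas2 (down to -0.16), Ifi35 (down to -0.06) and Zbp1 (down to -0.02) turned on leaving out 1 library. Over 34 named genes and the 14 alternatives, 408 values kept direction and call, 38 lost and 12 gained a call, and 17 turned. Deviations of same-numbered libraries, taken without the GC and length correction, correlated at 0.0524, -0.0573 and 0.114. Replicates 1 and 3 of each group correlated best with their own number, while replicate 2 of each correlated best with number 1 of the other. These correlations do not settle whether the numbers pair the libraries. Depth limited the scarce genes, Ifi44, Ifit1, Ifit3 and Oas2, whose counts were 9 to 93 per library.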
